A study of Drosophila melanogaster with 46 samples.

Results

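Animals store fat as triglyceride in lipid droplets, and 10 Drosophila genes of fat storage, fat breakdown and lipid synthesis were followed here in RNA from fly heads. The genes were chosen as a list by function, with earlier results of these data known. They were bmm, Lsd-1, Lsd-2, FASN1, ACC, Desat1, SREBP, mdy, apolpp and AkhR. All 10 were among the 17490 genes of the count table, and all 10 were among the 9969 that passed the filter on low counts. The study profiled heads under cycles of 12 h of light and 12 h of dark in 4 groups. WT was the isogenic Canton-S w1118 (iso1CJ) strain at Day 27, and WT-old was the same strain at Day 49. The inc1 group carried a mutation in insomniac (inc) and the wakeD2 group a mutation in wide awake (wake), each at Day 27, and each mutant strain had been backcrossed to the WT strain. Both mutants sleep little, and they served as models of chronic sleep loss. Each library was made from a pool of heads of mixed sexes at a single collection time, given as zeitgeber time (ZT, hours since the first lights-on). Collections ran every 4 h over 2 days, which gave 12 libraries each for inc1, wakeD2 and WT-old and 10 for WT, where ZT28 and ZT40 were not used here. No collection time was repeated within a group, so the spread between libraries holds the time of day as well as the difference between pools.

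Storage fat is made by joining fatty acids to glycerol, is kept in droplets coated with perilipins, and is released again by lipases when energy is needed. In the fly this happens mainly in the fat body, the counterpart of liver and adipose tissue, and a layer of fat body lies inside the head. Fat body also secretes the lipoprotein that carries lipid through the blood, and it answers to adipokinetic hormone (Akh), the insect counterpart of glucagon.

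Within the list, bmm (brummer, FBgn0036449, 3L:14776496-14786412) encodes the triglyceride lipase that corresponds to mammalian ATGL. Lsd-1 (FBgn0039114, 3R:23763857-23766662) and Lsd-2 (FBgn0030608, X:15069127-15076220) encode the fly's perilipins. FASN1 (FBgn0283427, 2L:3056598-3068177), ACC (FBgn0033246, 2R:7974115-7991862) and Desat1 (FBgn0086687, 3R:12439600-12447616) encode fatty acid synthase, acetyl-CoA carboxylase and a fatty acid desaturase, enzymes of the making of new fatty acids. SREBP (FBgn0261283, 3L:19793935-19798979) encodes the transcription factor that drives fatty acid synthesis genes. The last step of triglyceride synthesis is carried out by the product of mdy (midway, FBgn0004797, 2L:16816660-16826964), a diacylglycerol acyltransferase. The precursor of the blood lipoprotein apolipophorin comes from apolpp (FBgn0087002, 4:1060969-1077273), and AkhR (FBgn0025595, 2L:6711286-6716186) encodes the receptor for Akh. Positions are on Release 6 of the D. melanogaster genome. Exons of Lsd-1, SREBP and apolpp overlap exons of CG10214, CG14102 and Zyx on the opposite strand, and whether reads were counted by strand is not given in the sources used here.

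Libraries held between 12630462 and 29802881 counted reads (median 22856683). Even the least abundant gene of the list, mdy, had between 520 and 2014 reads in every library, so counting noise was small beside the spread between libraries. The targeted genes checked the labels: inc stood at 10.6 counts per 1e6 counted reads (CPM) in inc1 against 83.7 in WT, and wake at 44.3 CPM in wakeD2 against 72.2 in WT. Some libraries stood apart. In the 6 WT-old libraries of ZT12, ZT16, ZT20, ZT36, ZT40 and ZT44, the summed level of the female fat body genes Yp1, Yp2, Yp3 and fit was between 112 and 6771 CPM. It was between 42838 and 66066 CPM in the other 6 WT-old libraries and at least 46780 CPM in every library of the other groups. The male-specific RNAs roX1 and roX2 summed to between 1281 and 1360 CPM in those 6 libraries and to between 464 and 859 CPM in all 40 others. This goes against mixed sexes in equal parts in those 6 pools, and because they are the WT-old libraries from ZT12 to ZT20 of either day, sex make-up and time of day cannot be told apart in WT-old. Time-averaged member results in WT-old are therefore also given without them or over ZT0 to ZT8 alone. Some marker values and counts of other gene lists are given over all hours only. Accessory gland markers, which mark a tissue of the abdomen, had a median above 1 CPM in 3 WT, 4 inc1, 11 wakeD2 and 1 WT-old libraries, and testis and midgut markers moved with them. Ovary markers were under 1 CPM in every library. Of 6 fat body markers only Fbp2 was under 1 CPM throughout, and photoreceptor and neuron markers were high in every library. The summed fat body markers in WT-old ran from 232 to 639 CPM (median 291) over ZT12 to ZT20, where WT had 562 to 1338 CPM. Over ZT0 to ZT8 they ran from 979 to 2009 CPM (median 1637), where WT had 680 to 989 CPM. The sum rests on the most abundant of them. The median of the 6 markers in a library ran from 17.1 to 43.2 CPM in WT-old and from 20.8 to 46.3 CPM in WT. Of 5 tested over all hours, 1 was called as higher and 3 as lower in WT-old, beside 28.7% of all genes called. All 4 hemocyte markers were called as lower in WT-old over all hours, where 28.7% of all genes were called and 14.7% as lower. Their sums over ZT12 to ZT20 were 119 to 218 CPM in WT-old and 290 to 468 CPM in WT. Over ZT0 to ZT8 they were 197 to 280 CPM in WT-old and 300 to 386 CPM in WT. In pools of heads, less fat body and less RNA of a gene per fat body cell cannot be told apart.

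**Figure D1:**
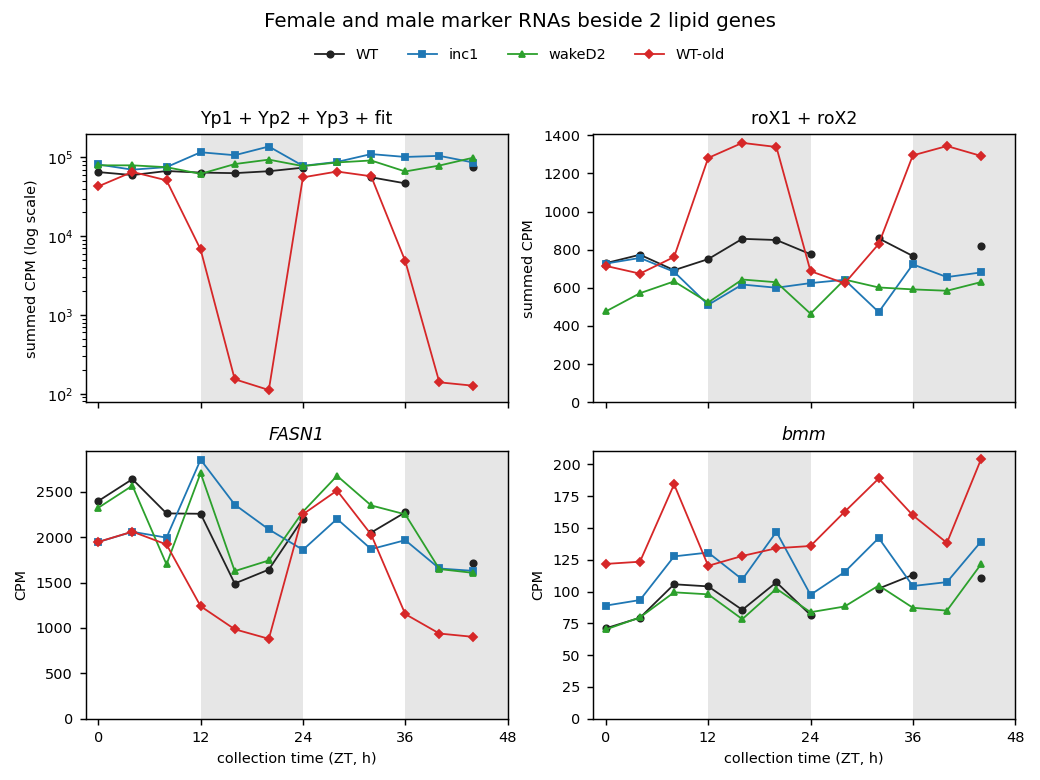
CPM by collection time (ZT, hours) for the summed female fat body genes Yp1, Yp2, Yp3 and fit (log axis), the summed male-specific roX1 and roX2, FASN1 and bmm; each point is 1 library, lines join the libraries of a group, and grey marks the dark hours. The female genes fell to between 112 and 6771 CPM, and roX rose to between 1281 and 1360 CPM, in the 6 WT-old libraries from ZT12 to ZT20 of either day, where FASN1 was also low and bmm was not.

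Compared per kilobase of exon, the 10 genes spanned a wide range in WT heads. Desat1 was highest at 1247 ± 268 CPM per kb (SD, n = 10), followed by apolpp at 527 ± 46.1 and FASN1 at 239 ± 41.8 CPM per kb. Lsd-1 at 174 ± 17.1 and Lsd-2 at 129 ± 14.1 CPM per kb came next, then SREBP at 90.9 ± 16.0 and ACC at 79.8 ± 14.4 CPM per kb. The lipase bmm (39.4 ± 6.19 CPM per kb), AkhR (24.5 ± 5.09) and mdy (20.2 ± 8.31) were the lowest. SREBP and ACC lay within each other's SD, as did AkhR and mdy. The same 3 genes led and the same 3 trailed the order in inc1, wakeD2 and WT-old.

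**Figure D2:**
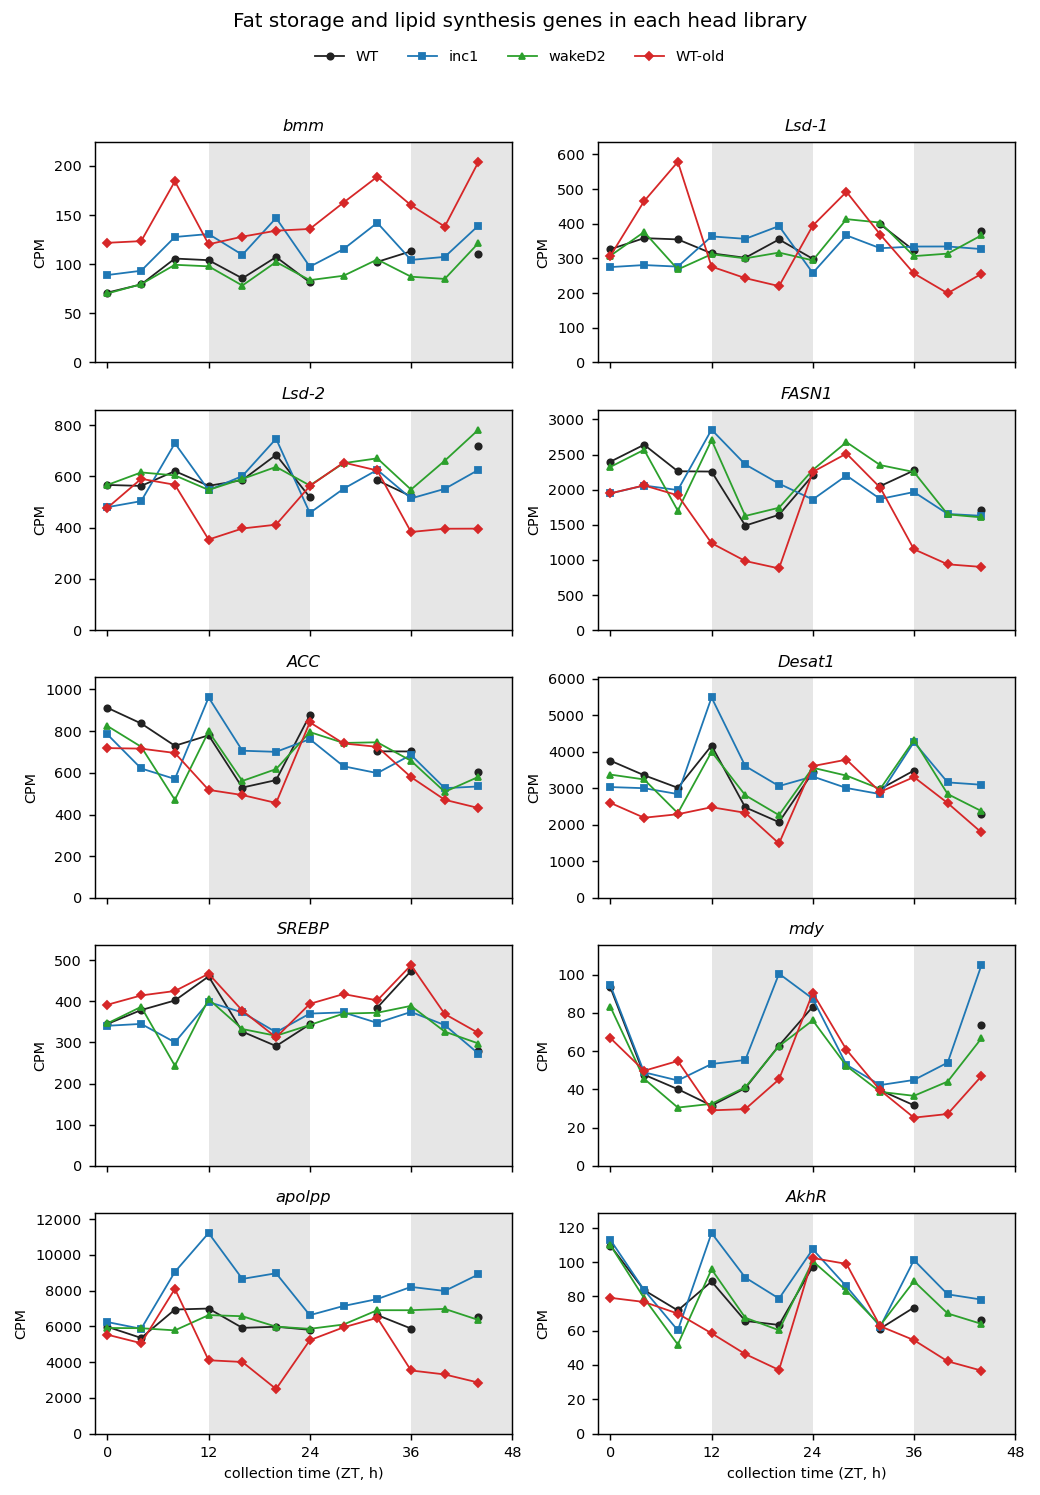
CPM (axis from 0) of each of the 10 genes against collection time (ZT, hours) in WT, inc1, wakeD2 and WT-old; each point is 1 library, grey marks the dark hours, and gaps in WT are ZT28 and ZT40. In WT-old bmm stood above WT throughout, whereas FASN1, apolpp and Lsd-2 were low from ZT12 to ZT20; mdy was highest at ZT44 in inc1 and at ZT0 or ZT24 in the other groups.

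Time-averaged levels were compared between groups with time of day in the model. A gene was called where edgeR's quasi-likelihood test gave an adjusted p under 0.05 over all tested genes, and every adjusted p below comes from that test. In inc1 against WT 3 of the 10 genes rose (bmm, mdy and apolpp) and none fell, where 33.5% of all 9969 genes were called and 14.9% were called as higher. No other member had an unadjusted p under 0.05 in edgeR there, and DESeq2 called 3 members as well. With the sum of the male-specific RNAs roX1 and roX2 as a covariate, bmm stayed called, and mdy and apolpp did not. In that setting 4 other members were called as lower, beside 31.3% of all genes called. None was called in wakeD2 against WT, where 23.3% of all genes were called, no member had an unadjusted p under 0.05 in edgeR, and DESeq2 also called 0. In WT-old against WT bmm rose and 6 genes fell (FASN1, apolpp, AkhR, Lsd-2, Desat1 and ACC), where 28.7% of all genes were called, 14% as higher and 14.7% as lower. Without the 6 WT-old libraries with few female markers this changed to 2 higher (bmm and Lsd-1) and none lower, where 27.2% of all genes were called. Over ZT0, ZT4 and ZT8 alone 2 were called (bmm and SREBP, both higher), where 17.3% of all genes were called, and over ZT12, ZT16 and ZT20 alone all 10 were called (bmm and SREBP higher, the other 8 lower), where 32.8% of all genes were called. In the direct comparison of wakeD2 with inc1, the 3 genes that were high in inc1 were called as lower in wakeD2, where 40.7% of all genes were called, 18.5% as lower. The 3 comparisons with WT share its 10 libraries. The median log2 fold change over the list was 0.07 in inc1, -0.02 in wakeD2 and -0.23 in WT-old, beside 0.02, -0.01 and -0.01 over all genes.

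**Figure D3:**
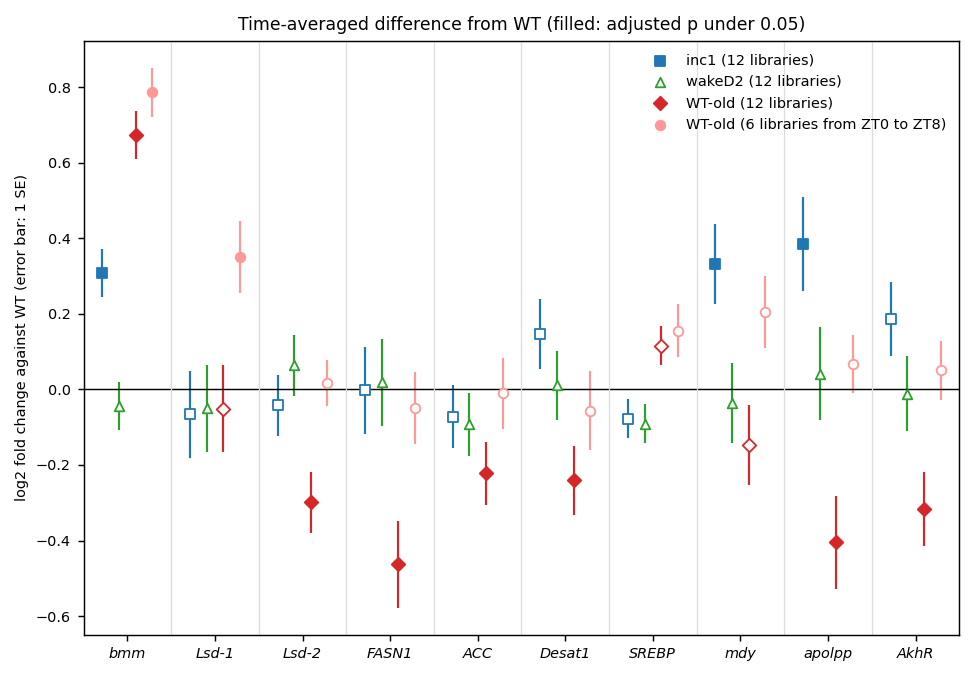
Time-averaged log2 fold change against WT (y axis, error bar 1 SE) for each of the 10 genes in inc1, wakeD2, WT-old and WT-old without the 6 libraries with few female markers; filled symbols have an adjusted p under 0.05. bmm, mdy and apolpp were higher in inc1, every wakeD2 value lay between -0.09 and 0.06, and of the WT-old values only the rise of bmm was called with and without the 6 libraries.

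The lipase bmm was higher in WT-old and inc1 than in WT. Its level ran from 71.0 CPM (ZT0) to 113 CPM in WT, with a median of 103 CPM. In WT-old it ran from 120.2 to 204 CPM with a median of 137 CPM, so that no WT-old library fell within the WT range, a separation seen for 0.833% of all genes in this comparison. The rise amounted to a log2 fold change of 0.67 (SE 0.063, 1.59-fold, adjusted p = 1.3e-10). Unlike the other members called in WT-old, bmm did not depend on the libraries with few female markers: the log2 fold change was 0.79 (SE 0.065, adjusted p = 6.3e-11) without them, 0.82 (SE 0.075, adjusted p = 0.00021) over ZT0, ZT4 and ZT8 alone, and 0.56 (SE 0.11, adjusted p = 0.0037) over ZT12, ZT16 and ZT20 alone. Over the 15 alternative settings the adjusted p lay between 1.2e-23 and 0.0037.

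In inc1, bmm ran from 88.9 CPM (ZT0) to 147 CPM (ZT20) with a median of 112 CPM. The range overlapped that of WT, but inc1 was above WT at 9 of the 10 shared collection times, ZT36 being the exception. The log2 fold change was 0.31 (SE 0.063, 1.24-fold, adjusted p = 0.00016), and bmm was past the threshold under all 13 alternatives (adjusted p up to 0.048). In wakeD2 the range was 70.1 to 122 CPM with a median of 87.7 CPM. It lay close to that of WT, with a log2 difference of -0.04 and a 95% interval from -0.17 to 0.08. The direct comparison gave a log2 fold change of -0.35 for wakeD2 against inc1 (SE 0.060, adjusted p = 1.2e-05), which became -0.44 with adjusted p = 0.41 when libraries with body-tissue markers were left out, a setting that keeps a single wakeD2 library. The order of the means was wakeD2, WT, inc1 and WT-old, and the neighbours wakeD2 and WT did not differ beyond their spread.

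The droplet coat genes Lsd-1 and Lsd-2 differed little at Day 27. Lsd-1 ran from 299 to 398 CPM in WT, from 258 to 393 CPM in inc1 and from 268 to 413 CPM in wakeD2. The ranges overlapped almost entirely, and the log2 differences from WT were -0.07 in inc1 (95% interval -0.29 to 0.16) and -0.05 in wakeD2 (-0.27 to 0.17). Lsd-2 ran from 518 to 717 CPM in WT, from 457 to 746 CPM in inc1 and from 547 to 782 CPM in wakeD2. Its log2 differences from WT were -0.04 in inc1 (95% interval -0.20 to 0.12) and 0.06 in wakeD2 (-0.09 to 0.22).

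In WT-old both perilipin genes had a far wider range, 199 to 578 CPM for Lsd-1 and 353 to 654 CPM for Lsd-2. The lows were all in the libraries with few female markers and with a fat body marker sum below that of the other WT-old libraries. From ZT12 to ZT20, Lsd-1 averaged 242 ± 27.8 CPM (SD, n = 6) in WT-old against 335 ± 32.1 CPM (n = 5) in WT. The groups did not overlap there, but how many of all genes were separated in these hours was not counted. From ZT0 to ZT8 the order was the opposite, 434 ± 97.1 CPM (n = 6) in WT-old against 347 ± 37.3 CPM (n = 5) in WT. Averaged over all hours Lsd-1 gave a log2 difference of -0.05 (95% interval -0.28 to 0.17), without the 6 libraries it was higher by 0.35 (SE 0.095, adjusted p = 0.0055), and over ZT0 to ZT8 alone the value of 0.30 did not pass the threshold (adjusted p = 0.11). Lsd-2 fell by 0.30 over all hours (SE 0.081, adjusted p = 0.0042) and by 0.63 over ZT12 to ZT20 alone (SE 0.048, adjusted p = 5.5e-06). Without the 6 libraries its log2 difference was 0.02 (SE 0.061, adjusted p = 0.91).

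Of the fatty acid synthesis genes, FASN1 showed the steepest drop in WT-old. It ran from 1489 CPM (ZT16) to 2640.0 CPM (ZT4) in WT and from 879 to 2515 CPM in WT-old. Every WT-old library from ZT12 to ZT20 was below every WT library of any hour. The level was 1015 ± 146 CPM (SD, n = 6) against 1876 ± 365 CPM (n = 5) in WT at the same hours. These are the 6 libraries with few female markers, and their fat body marker sum was also lower than in the rest of WT-old. How many of all genes were separated in this way was not counted. From ZT0 to ZT8 the ranges overlapped, with 2121 ± 226 CPM (n = 6) in WT-old and 2311 ± 222 CPM (n = 5) in WT. The log2 fold change was -0.46 over all hours (SE 0.12, adjusted p = 0.0019), -0.83 over ZT12 to ZT20 (SE 0.053, adjusted p = 1.5e-06) and -0.14 over ZT0 to ZT8 (SE 0.065, adjusted p = 0.17). Without the 6 libraries with few female markers FASN1 was not called.

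ACC and Desat1 moved the same way with smaller values. ACC averaged 615 ± 139 CPM in WT-old (n = 12) against 724 ± 130.4 CPM in WT (n = 10), a log2 fold change of -0.22 (SE 0.083, adjusted p = 0.040). Desat1 averaged 2614 ± 690 CPM in WT-old against 3103 ± 668 CPM in WT, a log2 fold change of -0.24 (SE 0.091, adjusted p = 0.044). Both calls were marginal: leaving out a single library ended the call of ACC for 27 of the 46 libraries (adjusted p up to 0.11) and that of Desat1 for 36 (up to 0.12). Without the 6 libraries with few female markers the log2 differences were -0.01 for ACC and -0.06 for Desat1, with adjusted p of 0.97 and 0.77.

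At Day 27 the synthesis enzymes did not separate the genotypes. FASN1 gave log2 differences from WT of -0.0026 in inc1 (95% interval -0.23 to 0.22) and 0.02 in wakeD2 (-0.21 to 0.24). ACC gave -0.07 in inc1 (-0.23 to 0.09) and -0.09 in wakeD2 (-0.25 to 0.07), and Desat1 gave 0.15 in inc1 (-0.03 to 0.33) and 0.01 in wakeD2 (-0.17 to 0.19). The highest library of all 3 genes in inc1 was ZT12 of the first day, with 2855 CPM of FASN1, 961 CPM of ACC and 5484 CPM of Desat1. That library also held the highest apolpp level of the series and the largest sum of fat body markers in inc1 (5007 CPM).

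SREBP, the regulator of these enzymes, did not follow them in WT-old. It ran from 279 to 474 CPM in WT and from 312 to 488 CPM in WT-old. The log2 difference was 0.12 (SE 0.051, adjusted p = 0.091), 0.14 over ZT0 to ZT8 alone (SE 0.043, adjusted p = 0.0496) and 0.14 over ZT12 to ZT20 alone (SE 0.042, adjusted p = 0.027). Leaving out WT ZT8, WT ZT36 or wakeD2 ZT8 brought the value over all hours past the threshold, with 0.14, 0.14 and 0.13. Within Day 27 the log2 differences of SREBP from WT were -0.08 in inc1 (95% interval -0.18 to 0.02) and -0.09 in wakeD2 (-0.19 to 0.01).

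The triglyceride synthesis gene mdy was higher in inc1 and had the clearest daily cycle of the list. In WT it ran from 31.5 CPM (ZT12) to 93.3 CPM (ZT0), and in inc1 from 42.2 CPM (ZT32) to 105 CPM (ZT44). The groups differed most between dusk and dawn. At ZT12 and ZT36 inc1 had 53.3 and 44.9 CPM against 31.5 and 31.6 CPM in WT, and at ZT20 and ZT44 it had 100.5 and 105 CPM against 62.9 and 73.8 CPM in WT. At ZT0 and ZT24 the levels were alike, at 94.5 and 87.4 CPM in inc1 and 93.3 and 83.2 CPM in WT. The time-averaged log2 fold change was 0.33 (SE 0.11, 1.26-fold, adjusted p = 0.013), and 0.12 with the roX covariate (adjusted p = 0.32). On the first day alone it was 0.37 (adjusted p = 0.10) and on the second 0.29 (adjusted p = 0.27), and a model with no term for time of day gave 0.26 (adjusted p = 0.46).

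For mdy in wakeD2 the range was 30.4 to 83.2 CPM and the log2 difference from WT was -0.04 (95% interval -0.24 to 0.17), and against inc1 its log2 fold change was -0.37 (SE 0.10, adjusted p = 0.0035). In WT-old mdy ran from 25.2 to 90.5 CPM with a log2 difference of -0.15 (SE 0.11, adjusted p = 0.32). Over ZT12 to ZT20 alone mdy fell in WT-old by 0.41 (SE 0.068, adjusted p = 0.00096), and without the 6 libraries the log2 difference was 0.20 (SE 0.096, adjusted p = 0.11).

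The lipoprotein gene apolpp had the highest counts of the list. It ran from 5352 to 6997 CPM in WT and from 5863 CPM (ZT4) to 11224 CPM (ZT12) in inc1, where 9 of 12 libraries were above the highest WT library. The log2 fold change in inc1 was 0.39 (SE 0.12, 1.31-fold, adjusted p = 0.014), with 0.43 on the first day alone (adjusted p = 0.12) and 0.33 on the second (adjusted p = 0.25). With the roX covariate it was 0.10 (adjusted p = 0.42). The 6 fat body markers summed to between 825 and 5007 CPM in inc1 and between 562 and 1338 CPM in WT. Within that list Lsp2, a storage protein, rose in inc1 by 1.69 on the log2 scale (adjusted p = 0.0045) and the odorant-binding protein gene Obp99b fell by 1.81 (adjusted p = 2.2e-05), and their part in the apolpp result was not tested. In wakeD2 apolpp ran from 5775 to 6978 CPM, within the WT range, with a log2 difference of 0.04 (95% interval -0.20 to 0.28). Against inc1 the log2 fold change of wakeD2 was -0.34 (SE 0.12, adjusted p = 0.018). With the body-tissue markers as a covariate the wakeD2 values against inc1 were -0.26 for apolpp (adjusted p = 0.22) and -0.30 for mdy (adjusted p = 0.077).

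In WT-old apolpp ran from 2494 CPM (ZT20) to 8099 CPM (ZT8). From ZT12 to ZT20 the WT-old level was 3382 ± 634 CPM (SD, n = 6) against 6263 ± 492 CPM (n = 5) in WT, with no overlap. How many of all genes were separated in these hours was not counted. The fat body marker sum was below that of the other WT-old libraries in the same 6 libraries. From ZT0 to ZT8 apolpp in WT-old was 6056 ± 1125 CPM (n = 6) against 6141 ± 641 CPM (n = 5). The log2 fold change was -0.40 over all hours (SE 0.12, adjusted p = 0.012), -0.90 over ZT12 to ZT20 (SE 0.10, adjusted p = 7.1e-05) and 0.07 without the 6 libraries with few female markers (SE 0.077, adjusted p = 0.59).

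The hormone receptor gene AkhR was low in the same WT-old libraries as the synthesis genes. It ran from 61.2 to 109.6 CPM in WT, from 60.2 to 117 CPM in inc1 and from 51.9 to 109.9 CPM in wakeD2. The log2 differences from WT were 0.19 in inc1 (95% interval -0.01 to 0.38) and -0.01 in wakeD2 (-0.20 to 0.18). The inc1 value was called when only inc1 and WT were fitted (0.18, adjusted p = 0.027) or when the 6 WT-old libraries were left out (0.19, adjusted p = 0.015). With the roX covariate it changed sign and was not called (-0.04, adjusted p = 0.72). In WT-old AkhR ran from 36.7 CPM (ZT44) to 102 CPM (ZT24), a log2 fold change of -0.32 over all hours (SE 0.099, adjusted p = 0.013). Over ZT12 to ZT20 AkhR fell by 0.62 (SE 0.062, adjusted p = 3.1e-05), and without the 6 libraries the log2 difference was 0.05 (SE 0.078, adjusted p = 0.71).

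Values of the Day 27 comparisons were also set beside the sex markers. The log2 fold change of roX1 against WT was -0.30 in inc1 (adjusted p = 0.027) and -0.44 in wakeD2 (adjusted p = 0.0018). Both roX genes were called as lower in wakeD2, but only 1 of the 2 in inc1, beside 23.3% and 33.5% of all genes called. None of the 4 female fat body genes was called in either mutant. Their median log2 fold change was 0.67 in inc1 and 0.33 in wakeD2. With the roX sum as a covariate, an alternative added after the data were seen, bmm was still called in inc1 (0.22, adjusted p = 0.0055), whereas mdy and apolpp were not. Lsd-1, Lsd-2, FASN1 and ACC were then called as lower in inc1, where 31.3% of all genes were called. In wakeD2 7 members were called as lower with that covariate, where 31% of all genes were called, led by Lsd-1 (-0.39, adjusted p = 0.0022) and FASN1 (-0.37, adjusted p = 0.00091). The largest roX values of that fit come from the 6 WT-old libraries. Body-tissue markers, in 11 of 12 wakeD2 libraries, brought no member of the wakeD2 comparison with WT past the threshold as a covariate, a setting in which 4.88% of all genes were called. Leaving those libraries out keeps a single wakeD2 library, and with 0.301% of all genes called there it says little about any member.

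Daily rhythm was tested as a 24 h cosine within each group. The only gene of the list called in all 4 groups was mdy, with a peak-to-trough ratio of 2.61 in WT, 2.37 in inc1, 2.37 in wakeD2 and 2.71 in WT-old (adjusted p = 2.0e-07, 1.2e-06, 1.4e-06 and 3.2e-08). Its fitted peak fell at ZT23.3 in WT, ZT21.4 in inc1, ZT22.7 in wakeD2 and ZT1.5 in WT-old. Over all genes 6.19% were called as rhythmic in WT, 5.04% in inc1, 5.95% in wakeD2 and 19.3% in WT-old. The difference in mdy rhythm between inc1 and WT had an unadjusted p of 0.036 and an adjusted p of 1.0, and that between WT-old and WT an adjusted p of 0.20.

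**Figure D4:**
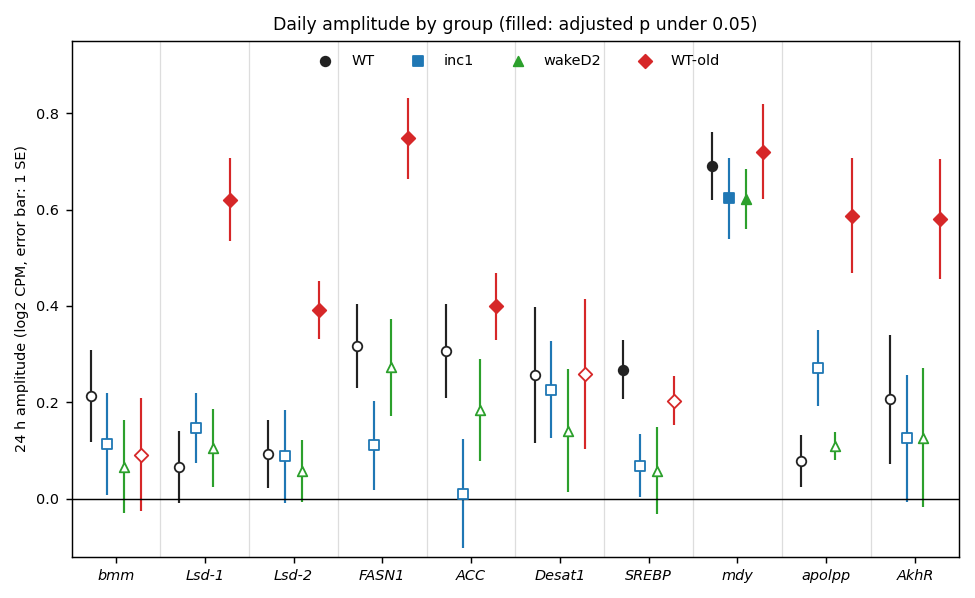
Amplitude of a 24 h cosine fitted to log2 CPM (y axis, error bar 1 SE) for each of the 10 genes in WT, inc1, wakeD2 and WT-old; filled symbols have an adjusted p under 0.05 in the count model. mdy was called in all 4 groups with amplitudes between 0.62 and 0.72, and Lsd-1, Lsd-2, FASN1, ACC, apolpp and AkhR were called only in WT-old, where sex make-up and time of day cannot be told apart.

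SREBP was the other rhythmic gene in WT, with an amplitude of 0.27 on the log2 scale (SE 0.062), a fitted peak at ZT9.1 and an adjusted p of 0.027. Its highest WT libraries were ZT12 (461 CPM) and ZT36 (474 CPM), and its lowest were ZT20 (291 CPM) and ZT44 (279 CPM). The call did not hold when WT ZT12, ZT20, ZT36 or ZT44 was left out (adjusted p = 0.080, 0.11, 0.11 and 0.13). SREBP amplitudes were 0.07 (SE 0.065) in inc1 and 0.06 (SE 0.090) in wakeD2, and the differences in rhythm from WT had unadjusted p of 0.12 and 0.13. No other member was called at Day 27, though the apolpp rhythm in inc1 had an amplitude of 0.27 (adjusted p = 0.085), which passed when inc1 ZT40 was left out (adjusted p = 0.048) or the WT-old group was (0.013).

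In WT-old 7 of the 10 genes were called as rhythmic, with 19.3% of all genes. Beside mdy these were FASN1 (amplitude 0.75, SE 0.084), Lsd-1 (0.62, SE 0.086), apolpp (0.59, SE 0.12), AkhR (0.58, SE 0.12), ACC (0.40, SE 0.070) and Lsd-2 (0.39, SE 0.060). Their fitted peaks all fell between ZT4.2 and ZT5.8, the middle of the hours with female markers. The rhythm differed from that in WT for Lsd-1 (adjusted p = 0.017) and apolpp (adjusted p = 0.015), where 1.72% of all genes were called. The call of Lsd-1 was lost without WT ZT4 (adjusted p = 0.070) or WT ZT44 (0.052), and that of apolpp without WT ZT4 (0.095). The female marker levels and the fat body marker sum followed the same hours in WT-old, and their part in these rhythms cannot be told apart from time of day. In inc1 and wakeD2 no member's rhythm differed from WT at the threshold. Over all genes 3 (0.0301%) were called in inc1 and none (0%) in wakeD2, with 339 and 149 genes at an unadjusted p under 0.05 in edgeR. Of the members 1 (mdy) was among the former and none among the latter, and DESeq2 was not run for rhythm.

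A wider set of lipid genes was read beside the 10. The set held 84 genes of the table in 10 lists, of which 77 passed the filter on low counts. In inc1 against WT 12 of the 77 rose and 17 fell, a share near the 33.5% called over all genes. In wakeD2 against WT 4 rose and 7 fell, a share below the 23.3% over all genes. In WT-old against WT 11 rose and 23 fell, beside 28.7% of all genes, and without the 6 libraries with few female markers 24 rose and 4 fell, beside 27.2%. The median log2 fold changes of the 77 were 0.02, -0.03, -0.07 and 0.02 in that order, beside 0.02, -0.01, -0.01 and -0.0070 over all genes.

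Of 8 lipolysis and lipase genes 5 rose and 1 fell in WT-old, where 28.7% of all genes were called and 14% were higher. Without the 6 libraries 5 rose and none fell, beside 27.2% of all genes called. Over ZT12 to ZT20 alone 4 rose and 1 fell, beside 32.8%. CG5966, a predicted lipase gene, rose from 88.3 to 161 CPM (log2 0.86, SE 0.13, adjusted p = 2.0e-06) and by 0.98 (adjusted p = 1.2e-05) without the 6 libraries. Lip3, a lipase gene induced by fasting, rose by 0.60 over all hours (adjusted p = 0.0058) but from a level of only 1.95 CPM in WT. The bmm-related gene dob (doppelganger von brummer) fell by 0.59 over all hours (adjusted p = 8.4e-05) and had a log2 difference of -0.27 without the 6 libraries (adjusted p = 0.095). In inc1 the same list had 1 gene higher and 5 lower, where 33.5% of all genes were called. Among the 5 was Lip3 at 0.825 CPM against 1.95 CPM in WT (log2 -1.10, SE 0.17, adjusted p = 2.9e-06).

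Dgat2, which acts at the same step as mdy, moved in the opposite direction to it in inc1. It averaged 2.76 CPM in inc1 against 7.91 CPM in WT with no overlap of the groups (log2 -1.49, SE 0.30, adjusted p = 0.00013), a separation seen for 2.11% of all genes. Without libraries with body-tissue markers its log2 difference was -0.83 (adjusted p = 0.14). In WT-old Dgat2 rose by 0.99 (adjusted p = 0.013), with values of 2.00 (adjusted p = 9.0e-10) without the 6 libraries and -0.58 (adjusted p = 0.13) over ZT12 to ZT20 alone. Zw, the glucose-6-phosphate dehydrogenase that supplies NADPH for fatty acid synthesis, fell in inc1 from 42.5 to 28.8 CPM (log2 -0.55, SE 0.094, adjusted p = 9.5e-06).

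In wakeD2 the only listed genes past the threshold with an absolute log2 fold change of 0.5 or more were mag and FASN2. The gut lipase gene mag rose from 0.563 to 3.56 CPM (log2 2.64, adjusted p = 3.9e-05) and FASN2, a fatty acid synthase of oenocytes, from 7.77 to 71.4 CPM (log2 3.29, adjusted p = 0.00023). With the accessory gland markers as a covariate these values were 0.62 (adjusted p = 0.33) and 0.18 (adjusted p = 0.83). Both genes were high where the body-tissue markers were.

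Of 12 fatty acid oxidation genes 4 fell and none rose in WT-old over all hours, beside 28.7% of all genes called. All 12 fell over ZT12 to ZT20 alone, beside 32.8% of all genes, and 5 rose and 1 fell without the 6 libraries, beside 27.2%. The rhythm of 9 of these 12 was called in WT-old, beside 19.3% of all genes, and of none in the other groups. In these hours sex make-up and time of day cannot be told apart. The oxidation gene Acox57D-d, a peroxisomal acyl-CoA oxidase, fell by 0.78 over all hours (adjusted p = 0.00021) and had a log2 difference of -0.15 without the 6 libraries (adjusted p = 0.16). In contrast sug (sugarbabe), a sugar-responsive transcription factor gene, fell by 0.85 (SE 0.12, adjusted p = 6.7e-07) and by 0.52 without the 6 libraries (adjusted p = 0.0032). Gpdh1, which makes glycerol-3-phosphate for triglyceride, fell by 0.51 (adjusted p = 2.8e-06) and by 0.20 without them (adjusted p = 0.0088).

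The remaining lists had these calls in WT-old over all hours, where 28.7% of all genes were called. Of 10 tested fatty acid synthesis genes beside the members 3 fell and none rose. Without the 6 libraries 5 of these genes rose and none fell, beside 27.2% of all genes called. Of 5 lipid droplet proteins 2 fell, of 9 triglyceride and phosphatidate synthesis genes 3 rose and 3 fell, and of 6 lipoprotein transport genes 1 rose and 1 fell. Of 11 AKH and energy signalling genes 2 fell, and of 3 phosphatidylethanolamine synthesis genes 2 fell. Of 3 SREBP processing genes 1 rose and 1 fell, and of 10 lipid transcription factors 1 rose and 4 fell. Apart from fatty acid synthesis, these counts include the 6 libraries with few female markers and are not given without them. In inc1 no oxidation gene was called, beside 33.5% of all genes, and none of the 12 had an unadjusted p under 0.05 in edgeR.

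Across the 46 libraries the members fell into patterns that are given as a description, since libraries of a group share their genotype and age. FASN1 and ACC were the closest pair of members (Pearson r = 0.85 on log2 CPM, 0.87 after subtracting group means), followed by AkhR with ACC (0.82) and with FASN1 (0.81). The lipase bmm had r of -0.46 with AkhR (-0.41 after subtracting group means) and -0.40 with FASN1 (-0.07). Among all tested genes Lsd-2 was most like Jabba, another lipid droplet protein gene (0.91), and apolpp was most like CG33120 (0.93). After subtracting group means FASN1 was most like AcCoAS (0.94) and Men (0.91), which supply acetyl-CoA and NADPH, and mdy was most like to (takeout, 0.91), a clock-regulated gene of the fat body. For bmm the closest gene was CG34054 (0.86), and for Lsd-1 it was PCB, pyruvate carboxylase (0.81). SREBP was most like AnxB9 (0.84), and Desat1 and AkhR were both most like Hf (0.84 and 0.94).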

How the data were processed

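Stranded poly(A) RNA libraries from pooled fly heads were sequenced by the authors as single reads, aligned with STAR 2.4.2a to Release 6 of the genome and counted per gene with featureCounts, and the deposited file holds raw read counts for 46 libraries (12630462 to 29802881 counts each). The strand and multimapping settings of the counting are not given in the sources used here. Counts were tested with edgeR 4.0.16 in R 4.3.3 (quasi-likelihood test, TMM scaling, all 46 libraries) after genes under 1 CPM in more than 28 libraries were removed. The model held group and 6 times of day, or a 24 h cosine per group for rhythm, and p-values were adjusted over all 9969 tested genes by Benjamini-Hochberg with a threshold of 0.05. The scripts were tested on simulated data. CPM values are TMM-scaled, and the 95% intervals come from the fitted SE. Replicates are separate pools at different collection times. The time-averaged model has 1 time-of-day term shared by all 4 groups. The spread behind its p-values therefore holds the difference between pools and also any difference between groups in their course over the day. Symbols were matched for 17288 of 17490 IDs. DESeq2 1.42.0, other filters, models and subsets of libraries were alternatives. Named genes were the members and, in each comparison, up to 8 other lipid genes past the threshold that differed by 0.5 or more on the log2 scale, besides the genes most like each member. The members and gene lists were chosen with earlier results of these data known.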

Additional observations from a re-analysis of the deposited data

Results flagged for a closer look

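The 24 h rhythm of 2 members differed between WT-old and WT by the test of the difference itself. For Lsd-1 (adjusted p = 0.017) the amplitude was 0.62 (SE 0.086) on the log2 scale in WT-old and 0.07 (SE 0.075) in WT. For apolpp (adjusted p = 0.015) it was 0.59 (SE 0.12) in WT-old and 0.08 (SE 0.054) in WT. In the 6 WT-old libraries where both genes were low, the female fat body genes summed to between 112 and 6771 CPM and roX1 and roX2 to between 1281 and 1360 CPM, and sex make-up and time of day cannot be told apart there. Dixon's test for a single library far from the others was run in WT alone, and none of the 10 members had one.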

How the results depend on the processing

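Of the counts of members called, 78 of 98 were within 1.5 times the reported ones under the alternatives, leave-outs being summarised as ranges. In inc1 against WT (3 called) the count was 1 on the first and 1 on the second sampling day and 5 with the roX covariate. In wakeD2 against WT (0) it was 7 with the roX covariate. In WT-old against WT (7) it was 3 with time of day left out, 3 on the first day, 1 on the second, 2 without the 6 libraries with few female markers, 4 with the roX covariate and 2 over ZT0, ZT4 and ZT8. In wakeD2 against inc1 (3) it was 1 on the second day, 0 without libraries with body-tissue markers and 1 with those markers as a covariate. Rhythm in WT (2) was called for 1 member over the 10 shared timepoints, with the cosine fit and without the WT-old group, and rhythm in inc1 (1) for 2 without the WT-old group. The rhythm difference of WT-old (2) was called for 0 without the filter on low counts, 1 over the 10 shared timepoints and 5 with the replicate block. Leaving out single libraries gave 1 to 2 for rhythm in each of WT, inc1 and wakeD2 and 0 to 3 for the difference of WT-old. The settings without the 6 libraries, with roX, over ZT0 to ZT8 or ZT12 to ZT20, and without the WT-old group were chosen after the data had been seen, and causes were not tested.

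Over all genes, 3337 genes were called in inc1 against WT but 1825 with time of day left out and 1625 and 1915 on the single days. For wakeD2 against WT (2327) the counts were 4963 without the filter, 1415 with time of day left out, 266 on the second day, 30 without libraries with body-tissue markers and 486 with the covariate. For WT-old (2861) they were 1462 with time of day left out, 1329 and 1449 on the single days and 1721 over ZT0 to ZT8. For wakeD2 against inc1 (4055) they were 2157 with time of day left out, 2597 and 1632 on the single days, 187 without libraries with body-tissue markers and 2011 with the covariate. Rhythm counts of 617 in WT, 502 in inc1, 593 in wakeD2 and 1926 in WT-old were 289, 198, 348 and 1037 with the cosine fit to log2 CPM, and over the 10 shared timepoints 389 in wakeD2 and 1204 in WT-old. The rhythm difference of WT-old (171) was 76 without WT ZT4, 104 without WT ZT32, 107 without WT-old ZT20, 95 over the shared timepoints and 340 with the block. That of inc1 (3) was 61 and that of wakeD2 (0) 2 with the block.

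Same-timepoint deviations from the fit of group and time of day correlated by 0.21 on average for inc1 and WT and -0.43 for wakeD2 and WT. The averages were -0.09 for WT-old and WT and -0.21 for wakeD2 and inc1, and single pairs ran from -0.95 to 0.90. The fit makes the deviations at each hour cancel out over the libraries, so these values cannot decide whether collection timepoints paired the groups. With timepoint as replicate block the members called were 3, 0, 6 and 3 in inc1, wakeD2 and WT-old against WT and in wakeD2 against inc1, ACC in WT-old being lost (adjusted p = 0.055).

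Of the member values 51 changed sign, 9 of them with a value past the threshold on either side. In inc1 against WT, FASN1 was 0.014 over shared timepoints, 0.0046 by DESeq2's Wald test, 0.0046 with its size factors, 0.0083 with the body-tissue covariate, 0.12 on the first day, 0.0036 without the filter and 0.15 without body-tissue libraries. There ACC was 0.022 and Lsd-2 0.0052 on the first day, AkhR was -0.038 with the roX covariate, and without body-tissue libraries ACC was 0.016, Lsd-2 0.023 and Lsd-1 0.049. In wakeD2 against WT, AkhR was 0.031 with the body-tissue covariate, 0.010 without the filter, 0.0022 with only these 2 groups, 0.074 on the second day and 0.074 without body-tissue libraries. There mdy was 0.046 with the covariate, 0.0090 on the second day and 0.14 without body-tissue libraries, Lsd-1 was 0.084 with the covariate, and Desat1 was -0.051 on the first day and -0.0078 with the replicate block. With the roX covariate FASN1 was -0.37, Desat1 -0.18, Lsd-2 -0.19 and apolpp -0.36. In WT-old against WT over ZT0 to ZT8, Lsd-1 was 0.30, Lsd-2 0.013, mdy 0.085 and apolpp 0.0073. Lsd-1 was 0.034 on the first day and 0.14 with roX, and mdy 0.021 with roX. Without the 6 libraries AkhR was 0.051, apolpp 0.067, mdy 0.20, Lsd-2 0.016 and Lsd-1 0.35. In wakeD2 against inc1, FASN1 was -0.00036 over shared timepoints, -0.11 on the first day and -0.078 with roX. There SREBP was 0.016 with the body-tissue covariate and 0.011 on the second day, and ACC was 0.030 and 0.0999 in the same settings. Lsd-1 was -0.058 on the first day, -0.075 with roX and -0.057 without body-tissue libraries, and Lsd-2 was -0.0046 on the first day.

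Leaving out single libraries, FASN1 ranged from -0.055 to 0.035 in inc1 against WT, from -0.016 to 0.057 in wakeD2 against WT and from -0.013 to 0.085 in wakeD2 against inc1. In wakeD2 against WT, Desat1 ranged from -0.020 to 0.042, mdy from -0.054 to 0.0016 and AkhR from -0.032 to 0.022. In WT-old against WT, Lsd-1 ranged from -0.13 to 0.013. In wakeD2 against inc1, Lsd-1 ranged from -0.026 to 0.050, ACC from -0.049 to 0.026 and SREBP from -0.038 to 0.021. Depth limited no member, since each had at least 520 reads in every library.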

Other observations

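In wakeD2 against inc1, 16 of the 77 wider lipid genes were higher and 18 lower, a share near the 40.7% called over all genes. With the body-tissue markers as a covariate 10 were higher and 8 lower, beside 2011 of all 9969 genes called. Leaving out the libraries that hold these markers keeps 1 wakeD2 library and says little about any of these genes. Zw was 43.8 CPM in wakeD2 and 28.8 CPM in inc1 (log2 0.58, SE 0.089), Dgat2 was 6.62 and 2.76 CPM (log2 1.26, SE 0.28), and Lip3 was 1.31 and 0.825 CPM (log2 0.64, SE 0.17). With the covariate these log2 differences were 0.54 for Zw, 1.35 for Dgat2 and 1.03 for Lip3, each still past the threshold. mag (log2 1.91, SE 0.41) and FASN2 (log2 2.58, SE 0.60) were also higher in wakeD2, with 0.50 and 0.53 under the covariate (adjusted p = 0.23 and 0.19). Of 8 lipolysis genes 5 were higher and 1 lower in wakeD2, and none of 12 fatty acid oxidation genes was called by edgeR in either direction or had an unadjusted p under 0.05. These libraries of inc1 also enter its comparison with WT.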
